A study of Homo sapiens with 9 samples.

Results

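The genes of the lysosome and of autophagy were followed in MDA-MB-231, a human breast cancer cell line, at 2 fluid viscosities and after knockdown of TRPV4, a calcium-permeable ion channel of the plasma membrane. The 35 genes were listed by the known roles of their proteins, with earlier results of these data known: 3 transcription factors of the TFEB family, 4 proteins of the lysosomal membrane, 12 hydrolases and other proteins of the lysosomal lumen, 5 components of the vacuolar ATPase and 11 autophagy proteins. All 35 were found by symbol among the 60664 genes of the count files, and all 35 had enough counts to be tested, the lowest count of any of them in any sample being 938. Cells stably carrying a scrambled hairpin (SC) were kept in medium of 0.77 cP or of 8 cP, and cells stably carrying a hairpin against TRPV4 (shTRPV4) were kept at 8 cP, with 3 samples in each of the 3 groups, all from day 6. The higher viscosity was reached with methylcellulose, which the 0.77 cP medium lacked. Both lines were made with the same lentiviral vector under puromycin selection, so vector and selection were shared by all groups, and the shTRPV4 line rests on 1 hairpin. No shTRPV4 samples at 0.77 cP are among those analysed here, so an effect of the knockdown at the lower viscosity is not part of the data. The sources used here do not say whether the 3 samples of a group were separate cultures, so the p-values measure the spread between these samples, which may be technical.

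The comparisons were 3: SC at 8 cP against SC at 0.77 cP (the viscosity comparison), shTRPV4 at 8 cP against SC at 8 cP (the knockdown comparison), and shTRPV4 at 8 cP against SC at 0.77 cP (both changes together, the outermost groups). They share samples, so their values stand side by side and are not independent of each other. Levels are given as CPM, the count of a gene relative to the scaled total of its library, and a difference as a log2 fold change with its standard error (SE) and the p-value of edgeR's quasi-likelihood test, adjusted by the Benjamini-Hochberg method over all 18264 genes tested. A gene is called higher or lower where that adjusted p is below 0.05. Where groups are said not to overlap, this is common. In the 3 comparisons, in the order above, the 2 groups did not overlap for 38.4%, 36.3% and 50.6% of all genes tested. TRPV4 itself was at 0.424, 0.436 and 0.525 CPM in SC at 0.77 cP, 0.647, 0.466 and 0.264 CPM in SC at 8 cP and 0.0764, 0.0128 and 0.144 CPM in shTRPV4 at 8 cP, from counts of 1 to 64 in a sample. All 3 shTRPV4 samples lay below all SC samples, with a log2 fold change of -2.51 ± 0.49 (SE, adjusted p = 0.0022) in the knockdown comparison.

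Libraries held between 64571681 and 103518036 counts, and the samples of a group correlated with a median r of 0.993 or more. The share of counts from mitochondrial genes was 2.04 to 2.58% in the SC samples and 3.28 to 3.40% in the shTRPV4 samples, so it moved with the knockdown, and its part in the differences below was not tested. Of the genes looked up as markers of this line, VIM was at 1030 to 1063 CPM in SC at 0.77 cP, 915 to 946 in SC at 8 cP and 754 to 777 in shTRPV4 at 8 cP. ANXA1 was at 1020 to 1106, 820 to 928 and 586 to 739 CPM in the same order. CD44 was at 754 to 906 CPM, EGFR at 195 to 266, and the epithelial keratin genes KRT8 and KRT18 at 981 to 1494 and 285 to 350. The part of these shifts in the differences below was not tested. The hormone receptor genes ESR1 and PGR were at or near 0, at most 0.039 CPM. ERBB2 was at 89.6 to 96.8 CPM in a line known as triple-negative. Of 10 markers of leukocytes, endothelium and fibroblasts, the summed level was 37.2 to 46.0 CPM in SC at 0.77 cP, 24.1 to 28.3 CPM in SC at 8 cP and 21.2 to 24.9 CPM in shTRPV4 at 8 cP. Most of it came from COL1A2, at most 33.1 CPM. COL1A1 was at 4.23 to 6.89 CPM and PECAM1 at 1.98 to 6.22 CPM, and all 3 were lower in both groups at 8 cP. LUM, at 0.607 to 1.60 CPM, was instead higher in the shTRPV4 samples. The other 6 were at most 0.186 CPM, with DCN, CDH5 and CD3E at or near 0. The sum was thus highest in SC at 0.77 cP, as were some of the genes below, and its part in them was not tested.

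Lysosomes break down proteins, lipids and sugars with hydrolases that work at acid pH, which the vacuolar ATPase maintains by pumping protons across the lysosomal membrane. Autophagy brings cytoplasm to the lysosome: the ULK1 kinase complex starts the process, a lipid kinase complex containing BECN1 marks the forming membrane, and small proteins of the LC3 and GABARAP families are joined to its lipids and draw in cargo receptors such as SQSTM1. TFEB, TFE3 and MITF are related transcription factors that enter the nucleus when the nutrient kinase mTORC1 is inactive and bind short DNA elements in the promoters of many lysosomal genes. In carcinoma cells, cathepsins are also secreted and degrade extracellular matrix. Transcript levels measure none of the transport, acidification or flux through these steps.

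The DNA element bound by the TFEB family has the palindrome CACGTG at its core, and the longer palindrome TCACGTGA, which contains it, is the centre of the element found at lysosomal genes. Because these factors are themselves in the list, the windows of RefSeq promoters (GRCh38.p14, 250 bases before to 50 bases after a start) were searched for both sets of letters, which read the same on both strands. RefSeq windows were matched for 27 of the 35 genes, which have 35 windows in all because some genes have more than 1 start, and none was matched for LAMP2, CTSB, HEXA, PSAP, ATP6V1A, ATP6V1B2, ATP6V1H and UVRAG. CACGTG stood in windows of 7 genes, which is 20% of the 35 windows against 7.26% of all 35116 windows in the table. TCACGTGA stood in windows of 5 of these, ATP6V0D1, CTSA, GAA, LAMP1 and MCOLN1, or 14.3% of windows against 0.98% of all. Since the element is known from lysosomal genes and the list was chosen by role, these higher shares are no result of the present data. The 60 bases around 1 match in each of the 7 genes are given below 5′ to 3′ on the strand of the gene, in lower case with that match in capitals, since these are the genes where the letters can be set beside the measured levels.
MCOLN1 (chr19:7522556-7522615, plus strand): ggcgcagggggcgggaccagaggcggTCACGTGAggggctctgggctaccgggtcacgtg
ATP6V0D1 (chr16:67481184-67481243, minus strand): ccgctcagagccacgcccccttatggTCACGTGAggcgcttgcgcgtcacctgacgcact
LAMP1 (chr13:113297179-113297238, plus strand): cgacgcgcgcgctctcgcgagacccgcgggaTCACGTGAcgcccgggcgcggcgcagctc
CTSA (chr20:45891275-45891334, plus strand): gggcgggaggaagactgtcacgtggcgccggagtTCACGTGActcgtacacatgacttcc
GAA (chr17:80101478-80101537, plus strand): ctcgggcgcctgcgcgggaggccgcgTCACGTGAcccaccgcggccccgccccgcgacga
CTSD (chr11:1763942-1764001, minus strand): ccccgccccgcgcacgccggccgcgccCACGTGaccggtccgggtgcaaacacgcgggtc
NEU1 (chr6:31862915-31862974, minus strand): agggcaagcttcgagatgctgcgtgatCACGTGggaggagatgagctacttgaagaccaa

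All 7 stretches lie upstream of the start in the window, and the match began 26 to 126 bases before it. The 7 genes did not share a direction. Between shTRPV4 at 8 cP and SC at 0.77 cP, MCOLN1 and ATP6V0D1 were called higher, CTSD and NEU1 lower, and CTSA, GAA and LAMP1 had no call, with values given gene by gene further on. A match is a description of the letters in the window and not a measured binding site.

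Transcript levels of the 35 genes spanned nearly 2 orders of magnitude once divided by the length of the Ensembl canonical transcript. PSAP, the precursor of the saposins that help lipid hydrolases, was highest at 359 CPM per kilobase averaged over the 9 samples. The aspartic protease CTSD followed at 298, the cysteine protease CTSZ at 279, the cholesterol carrier NPC2 at 191 and the cysteine protease CTSB at 159 CPM per kilobase. Lumenal proteins thus held the top 6 places, the last of them taken by CTSL at 89.8 CPM per kilobase. The autophagy receptor SQSTM1, at 88.4 CPM per kilobase, and the membrane protein LAMP1, at 86.8, came next and close together. At the other end were MITF at 3.80, ATG7 at 3.93, HEXA at 4.47, ULK1 at 5.71 and UVRAG at 5.79 CPM per kilobase. Among the transcription factors TFE3 was by far the most abundant transcript per length, at 48.5 CPM per kilobase against 7.06 for TFEB and 3.80 for MITF.

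**Figure D1:**
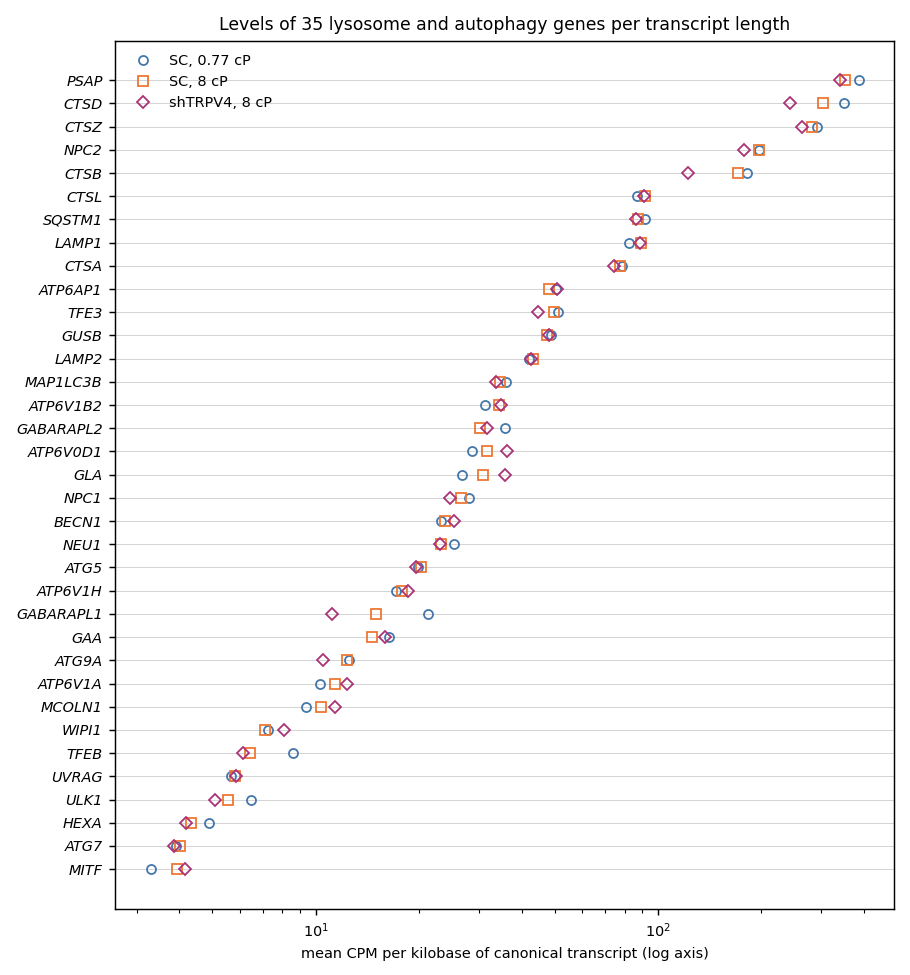
Mean level of each of the 35 genes in CPM per kilobase of canonical transcript, on a log axis, with 1 marker per group (n = 3 samples each). The 5 lumenal genes from PSAP (359 CPM per kilobase over all samples) to CTSB (159) stand above the rest, and the 3 groups lie close together for most genes, with GABARAPL1, CTSB, CTSD and TFEB spread the most. CTSD and ATG9A may stand too low, since overlapping genes hold a large part of their transcripts.

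In the viscosity comparison 9 of the 35 genes were called (25.7%), against 19.3% of all genes tested. Higher were 2 (5.71% of the list against 9.57% of all genes) and lower were 7 (20% against 9.69%). In the knockdown comparison 8 were called (22.9% against 20.0% of all genes), 2 of them higher (5.71% against 9.02%) and 6 lower (17.1% against 11.0%). Both shares of calls were near those of the whole transcriptome, while lower calls outnumbered higher ones in the list. Among all genes lower calls were about as frequent as higher ones in the viscosity comparison and more frequent in the knockdown comparison. The 9 and 8 calls of the list are too few to read a difference in direction from. Between shTRPV4 at 8 cP and SC at 0.77 cP 21 were called (60% against 42.4% of all genes), 7 higher (20% against 20.4%) and 14 lower (40% against 22.0%). Over the genes with at least 10 counts in every sample the shares called were 22.6%, 22.9% and 47.8% in the 3 comparisons. The calls in the list were the same with that filter. The median log2 fold change of the list was -0.027, -0.014 and -0.042 in the 3 comparisons, beside -0.0065, 0.00064 and -0.011 over all genes tested, so the list as a whole moved by little. Most single changes were small too: log2 fold changes ranged from -0.50 to 0.26, from -0.49 to 0.22 and from -0.92 to 0.43. With total counts alone as the scaling, the median of the list in the knockdown comparison was 0.013. That of all genes moved alike to 0.028, so the list stayed below it. That scaling also split the calls of all genes in this comparison into 2082 higher and 1627 lower, against 1647 and 2002.

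In the viscosity comparison the number of calls depended on single libraries, in the list as among all genes. It was 9 with all samples, 2 without SC 0.77 cP replicate 1, SC 0.77 cP replicate 2 or SC 8 cP replicate 3 (none higher), and 5 without SC 8 cP replicate 1 (none higher). Without SC 8 cP replicate 2 the calls were 3 higher and 3 lower, without SC 0.77 cP replicate 3 they were 6 higher and 7 lower, and without shTRPV4 8 cP replicates 1 and 2 they were 5 higher and 8 lower, and 1 higher and 6 lower. Over all genes the share called moved alike, from 19.3% to 7.58%, 10.3% and 7.56% in the 3 fits with 2 calls. It was 14.7% and 14.5% without SC 8 cP replicates 1 and 2. It was 23.3% without SC 0.77 cP replicate 3, and 23.2% and 16.3% without shTRPV4 8 cP replicates 1 and 2. The 2 genes still called in every such fit were TFEB and GABARAPL1. In the knockdown comparison 5 of the 8 calls, ATG9A, CTSB, CTSD, GABARAPL1 and TFE3, held in all 9 fits that each left out 1 sample and in 7 other settings. The count was 5 without SC 8 cP replicate 1, SC 8 cP replicate 2 or shTRPV4 8 cP replicate 1 (none higher). Over all genes the share called went from 20.0% to 12.6%, 11.7% and 15.8% in these 3 fits. Between shTRPV4 at 8 cP and SC at 0.77 cP 14 of the 21 calls held in all 9 fits and 7 other settings. Without SC 0.77 cP replicate 2 the number called lower went from 14 to 9. Over all genes that number went from 4020 to 3263, and the share called in either direction from 42.4% to 34.6%.

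**Figure D2:**
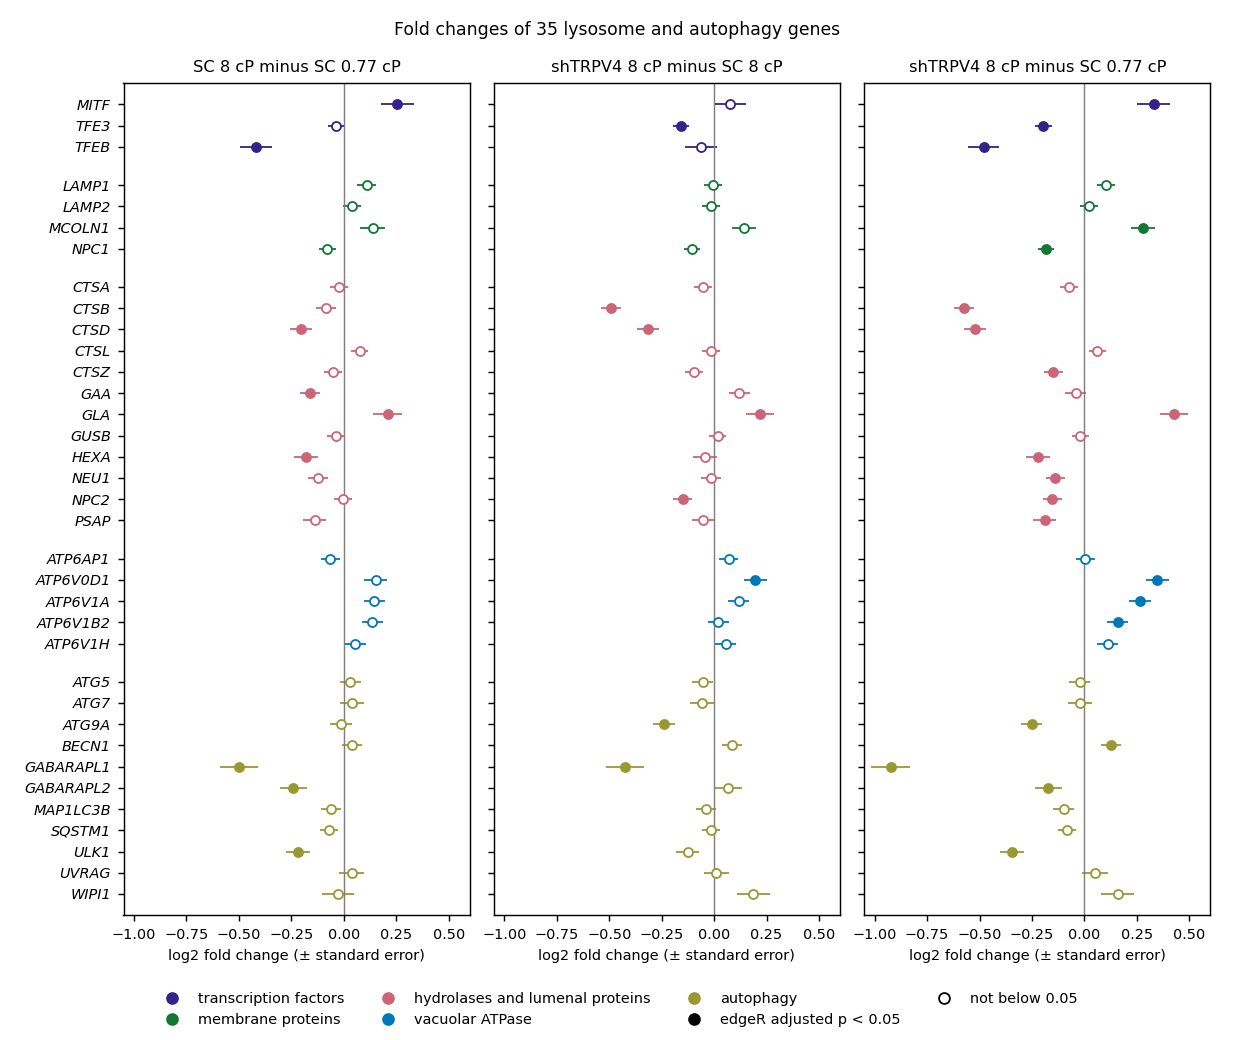
Log2 fold change ± SE of each of the 35 genes in the 3 comparisons, coloured by role, with filled circles where edgeR's adjusted p was below 0.05 (9, 8 and 21 genes). GABARAPL1 lies farthest to the left in the viscosity comparison (-0.50) and in the comparison of shTRPV4 at 8 cP with SC at 0.77 cP (-0.92), and CTSB in the knockdown comparison (-0.49).

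The 3 transcription factors went different ways. TFEB (chr6:41683978-41736259 in GRCh38) was at 20.4, 21.2 and 18.6 CPM in SC at 0.77 cP, 15.8, 15.2 and 14.0 CPM in SC at 8 cP and 13.8, 13.7 and 15.6 CPM in shTRPV4 at 8 cP. Every sample at 8 cP, SC or shTRPV4, was below every sample at 0.77 cP, while the 2 groups at 8 cP overlapped. In the viscosity comparison TFEB fell by 25.2%, with a log2 fold change of -0.42 ± 0.075 (SE, adjusted p = 0.0021), and the knockdown comparison gave -0.063 ± 0.075 (SE, adjusted p = 0.61). The fall at 8 cP was called in all 16 alternative fits, at log2 fold changes of -0.46 to -0.36. Between the outermost groups TFEB was called lower at -0.48 ± 0.075 (SE, adjusted p = 1.1e-04).

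TFE3 (chrX:49028726-49043410), the family member with the most transcript per length here, was at 170.3, 168 and 166 CPM in SC at 0.77 cP, 165, 163 and 164 CPM in SC at 8 cP and 147, 145 and 149 CPM in shTRPV4 at 8 cP. The shTRPV4 samples stood clearly below both SC groups. TFE3 fell by 10.3% in the knockdown comparison, at a log2 fold change of -0.16 ± 0.039 (SE, adjusted p = 0.0099), a call kept in all 16 alternative fits. In the viscosity comparison the groups did not overlap, yet the log2 fold change was only -0.038 ± 0.039 (SE, adjusted p = 0.53). TFE3 was also called lower between the outermost groups, at -0.20 ± 0.039 (SE, adjusted p = 8.0e-04).

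MITF (chr3:69739456-69968336), known as the master regulator of melanocytes and also expressed at low levels elsewhere, was at 15.4, 14.6 and 17.5 CPM in SC at 0.77 cP, 18.9, 17.3 and 20.7 CPM in SC at 8 cP and 20.6, 20.4 and 18.9 CPM in shTRPV4 at 8 cP. One SC sample at 8 cP, replicate 2, was below one SC sample at 0.77 cP, replicate 3, so the 2 SC groups overlapped. MITF was called higher in the viscosity comparison, at a log2 fold change of 0.26 ± 0.079 (SE, adjusted p = 0.034). That call was lost without SC 0.77 cP replicate 1 (0.24), SC 0.77 cP replicate 2 (0.21), SC 8 cP replicate 1 (0.27) or SC 8 cP replicate 3 (0.20). Against SC at 0.77 cP all shTRPV4 samples were higher, at 0.33 ± 0.079 (SE, adjusted p = 0.0031), and the knockdown comparison gave 0.076 ± 0.078 (SE, adjusted p = 0.55).

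Of the membrane proteins, MCOLN1 and NPC1 passed the test between the outermost groups, and LAMP1 passed it in some alternative fits alone. MCOLN1 (chr19:7522624-7534009), the lysosomal calcium channel also called TRPML1, was at 19.9, 18.2 and 20.6 CPM in SC at 0.77 cP, 21.1, 21.3 and 22.3 CPM in SC at 8 cP and 23.9, 23.5 and 23.9 CPM in shTRPV4 at 8 cP. Each group lay above the one before it without overlap. Neither step passed the test by itself, at 0.14 ± 0.059 (SE, adjusted p = 0.11) and 0.14 ± 0.058 (SE, adjusted p = 0.10), and shTRPV4 at 8 cP against SC at 0.77 cP did, at 0.28 ± 0.059 (SE, adjusted p = 0.0012). Without SC 0.77 cP replicate 3 the viscosity comparison passed as well (0.19).

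NPC1 (chr18:23506184-23586506), which exports cholesterol from the lysosome, went the opposite way, at 135, 133 and 133 CPM, 129.8, 124 and 125 CPM and 118, 116 and 118 CPM in the same order of groups. Here too no groups overlapped, and only the outermost pair passed the test, at -0.18 ± 0.040 (SE, adjusted p = 0.0015). Its partner NPC2, a soluble carrier in the lumen that hands cholesterol to NPC1, was level in the SC groups at 164, 167 and 156 CPM and 161, 162 and 163 CPM. NPC2 was lower in shTRPV4 cells, at 141, 145 and 152 CPM, with a log2 fold change of -0.15 ± 0.044 (SE, adjusted p = 0.026) in the knockdown comparison. That NPC2 call was lost with total counts alone (-0.12) and without SC 8 cP replicate 1 (-0.15), replicate 2 (-0.15) or replicate 3 (-0.14) or shTRPV4 8 cP replicate 1 (-0.12) or replicate 2 (-0.15). The abundant glycoproteins LAMP1 and LAMP2, which line the inside of the lysosomal membrane, had means of 223 ± 8.73, 241 ± 7.05 and 239.6 ± 5.67 CPM and of 274 ± 12.4, 281 ± 2.13 and 279 ± 3.88 CPM (SD, n = 3 each). The LAMP1 samples at 8 cP were all above those at 0.77 cP, but its viscosity comparison did not pass the test, at 0.11 ± 0.044 (SE, adjusted p = 0.097). LAMP1 between the outermost groups gave 0.10 ± 0.044 (SE, adjusted p = 0.073), and it was called higher there by DESeq2 (0.11), with total counts alone (0.13) and without SC 0.77 cP replicate 2 (0.14).

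Among the 12 lumenal proteins, 4 were called in the viscosity comparison (1 higher, 3 lower), 4 in the knockdown comparison (1 higher, 3 lower) and 8 between the outermost groups (1 higher, 7 lower). That is 33.3%, 33.3% and 66.7% of them, beside 19.3%, 20.0% and 42.4% of all genes, from counts too few to read a difference from. GLA was the higher one each time. CTSB (chr8:11842524-11869533), a cysteine protease, was at 694, 709 and 637 CPM in SC at 0.77 cP, 645, 652 and 627 CPM in SC at 8 cP and 442, 453 and 475 CPM in shTRPV4 at 8 cP. The SC groups overlapped, and every shTRPV4 sample was below every SC sample. CTSB fell by 28.8% in the knockdown comparison, at a log2 fold change of -0.49 ± 0.049 (SE, adjusted p = 6.0e-06), against -0.084 ± 0.049 (SE, adjusted p = 0.25) in the viscosity comparison. The fall after knockdown was called in all 16 alternative fits, at -0.52 to -0.46. CTSB was also called lower between the outermost groups, at -0.57 ± 0.049 (SE, adjusted p = 3.5e-07).

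CTSD (chr11:1752752-1764573), the main aspartic protease of the lysosome, was lower at each step. Its levels were 735, 746 and 671 CPM in SC at 0.77 cP, 655, 607 and 604 CPM in SC at 8 cP and 485, 494 and 520.4 CPM in shTRPV4 at 8 cP, and no groups overlapped. The log2 fold change was -0.21 ± 0.052 (SE, adjusted p = 0.013) in the viscosity comparison and -0.32 ± 0.052 (SE, adjusted p = 5.6e-04) in the knockdown comparison. Between the outermost groups CTSD fell by 30.3%. The knockdown call held in all 16 alternative fits, while the viscosity call was lost without SC 0.77 cP replicate 1 (-0.18), SC 0.77 cP replicate 2 (-0.17), SC 8 cP replicate 2 (-0.18) or SC 8 cP replicate 3 (-0.18). Of all 100-base stretches of the CTSD canonical transcript, 60.3% also lie in the overlapping gene ENSG00000250644, which was listed at 35 to 128 counts, so CTSD rests on reads that the counting could assign to it alone.

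GLA (chrX:101393273-101408012), the alpha-galactosidase whose loss causes Fabry disease, was higher at each step. It was at 30.9, 36.3 and 38.4 CPM in SC at 0.77 cP, 40.7, 39.0 and 42.2 CPM in SC at 8 cP and 48.7, 45.5 and 47.6 CPM in shTRPV4 at 8 cP, with no overlap between groups. The log2 fold changes were 0.21 ± 0.067 (SE, adjusted p = 0.042) in the viscosity comparison, 0.22 ± 0.067 (SE, adjusted p = 0.032) in the knockdown comparison and 0.43 ± 0.067 (SE, adjusted p = 1.2e-04) between the outermost groups. The last call held in all 16 alternative fits. The viscosity call was lost without SC 0.77 cP replicate 1 (0.13), SC 0.77 cP replicate 2 (0.24), SC 8 cP replicate 1 (0.21), SC 8 cP replicate 3 (0.19) or shTRPV4 8 cP replicate 2 (0.21). The knockdown call was lost without SC 8 cP replicate 1 (0.22), SC 8 cP replicate 2 (0.18) or any 1 of the shTRPV4 samples (0.19, 0.24 and 0.21 for replicates 1, 2 and 3).

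Alpha-glucosidase (GAA), which degrades glycogen, and HEXA, a subunit of the hexosaminidase that degrades gangliosides, were called lower in the viscosity comparison. GAA was at 61.2, 65.3 and 58.0 CPM in SC at 0.77 cP, 56.5, 53.3 and 55.0 CPM in SC at 8 cP and 59.7, 59.4 and 60.1 CPM in shTRPV4 at 8 cP, so it was lowest in SC at 8 cP. Its log2 fold change was -0.16 ± 0.049 (SE, adjusted p = 0.031) in the viscosity comparison and, not passing the test, 0.12 ± 0.049 (SE, adjusted p = 0.10) in the knockdown comparison, where total counts alone gave a call (0.15). HEXA was at 23.4, 24.7 and 22.1 CPM, 21.1, 20.9 and 19.9 CPM and 19.8, 19.9 and 20.5 CPM in the same order, and its viscosity comparison gave -0.18 ± 0.058 (SE, adjusted p = 0.040). Both viscosity calls were lost without SC 0.77 cP replicate 1 (GAA -0.16, HEXA -0.17), SC 0.77 cP replicate 2 (-0.11, -0.13) or SC 8 cP replicates 1 (-0.17, -0.19), 2 (-0.13, -0.18) or 3 (-0.15, -0.15), and that of HEXA also without shTRPV4 8 cP replicate 2 (-0.18) or the filter on low counts (-0.18). Between the outermost groups HEXA was lower at -0.22 ± 0.058 (SE, adjusted p = 0.0057), called in all 16 alternative fits, and GAA gave -0.042 ± 0.049 (SE, adjusted p = 0.53).

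The precursor PSAP, the protease CTSZ and the sialidase NEU1 passed the test between shTRPV4 at 8 cP and SC at 0.77 cP and in neither step alone. PSAP, at 1062 ± 54.1 CPM in SC at 0.77 cP, 965 ± 38.5 in SC at 8 cP and 932 ± 54.7 in shTRPV4 at 8 cP (SD, n = 3 each), had a log2 fold change of -0.19 ± 0.054 (SE, adjusted p = 0.010). CTSZ was at 439 ± 14.4, 423 ± 9.17 and 396 ± 13.5 CPM, with -0.15 ± 0.044 (SE, adjusted p = 0.014). NEU1 was at 85.0 ± 4.23, 78.0 ± 0.801 and 77.2 ± 2.74 CPM, with -0.14 ± 0.047 (SE, adjusted p = 0.026). These calls were less secure than those for CTSB and CTSD: that of PSAP was lost without SC 0.77 cP replicate 2 (-0.14). PSAP was also called lower in the viscosity comparison with no filter on low counts (-0.14), with only the 6 samples compared (-0.14) and without shTRPV4 8 cP replicate 1 (-0.14), against -0.14 ± 0.054 (SE, adjusted p = 0.085) with all samples and the filter. The CTSZ call was lost without SC 0.77 cP replicate 1 (-0.12), SC 0.77 cP replicate 2 (-0.13) or shTRPV4 8 cP replicate 2 (-0.13). The NEU1 call was lost with total counts alone (-0.11), with no filter (-0.14), with only the 6 samples compared (-0.13), and without SC 0.77 cP replicate 2 (-0.091), SC 8 cP replicate 2 (-0.13), shTRPV4 8 cP replicate 1 (-0.13) or shTRPV4 8 cP replicate 2 (-0.12). CTSA, CTSL and GUSB were not called in any comparison, and their log2 fold changes lay between -0.075 and 0.075. NPC2 was lower between the outermost groups at -0.15 ± 0.044 (SE, adjusted p = 0.011), a call lost without SC 0.77 cP replicate 2 (-0.13).

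Of the 5 vacuolar ATPase genes, none was called in the viscosity comparison, 1 in the knockdown comparison and 3 between the outermost groups, all of them higher, beside 9.57%, 9.02% and 20.4% of all genes called higher. ATP6V0D1 (chr16:67438014-67481181), a subunit of the membrane sector, was at 46.5, 44.4 and 49.3 CPM in SC at 0.77 cP, 50.7, 50.5 and 54.6 CPM in SC at 8 cP and 61.8, 55.6 and 61.1 CPM in shTRPV4 at 8 cP. Each group lay above the one before it, and the knockdown comparison was called at 0.20 ± 0.056 (SE, adjusted p = 0.021), against 0.15 ± 0.056 (SE, adjusted p = 0.069) in the viscosity comparison. The knockdown call was lost without SC 8 cP replicate 1 (0.18), SC 8 cP replicate 2 (0.17), shTRPV4 8 cP replicate 1 (0.17) or shTRPV4 8 cP replicate 3 (0.18). Between the outermost groups ATP6V0D1 rose by 27.2%, at 0.35 ± 0.056 (SE, adjusted p = 1.4e-04), in all 16 alternative fits.

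ATP6V1A, the catalytic subunit that splits ATP, was at 44.3, 48.9 and 48.5 CPM in SC at 0.77 cP, 53.0, 49.9 and 53.9 CPM in SC at 8 cP and 55.3, 57.9 and 56.9 CPM in shTRPV4 at 8 cP, again in rising order without overlap. It was called between the outermost groups, at 0.26 ± 0.051 (SE, adjusted p = 6.4e-04). ATP6V1B2, which alternates with ATP6V1A in the same ring, was at 89.3 ± 5.19, 98.2 ± 3.14 and 99.6 ± 1.37 CPM (SD, n = 3 each) and was called in the same pair at 0.16 ± 0.048 (SE, adjusted p = 0.015), which was lost without SC 0.77 cP replicate 1 (0.12). In the viscosity comparison the adjusted p of edgeR's test was 0.055 for ATP6V1A, 0.058 for ATP6V1B2 and 0.069 for ATP6V0D1, all just above the threshold. DESeq2 called ATP6V1A (0.15) and ATP6V1B2 (0.14) higher there. Leaving out SC 0.77 cP replicate 3 brought calls for ATP6V1A (0.18), ATP6V1B2 (0.18) and ATP6V0D1 (0.20). Leaving out shTRPV4 8 cP replicate 1 brought the same 3 (0.15, 0.14 and 0.15). Without SC 8 cP replicate 2 ATP6V1A was called (0.19). ATP6V1H, a regulatory subunit, and ATP6AP1, an accessory protein, were not called, and their log2 fold changes lay between -0.064 and 0.11. ATP6V1H was called higher between the outermost groups with total counts alone and without shTRPV4 8 cP replicate 1 (both 0.14).

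**Figure D3:**
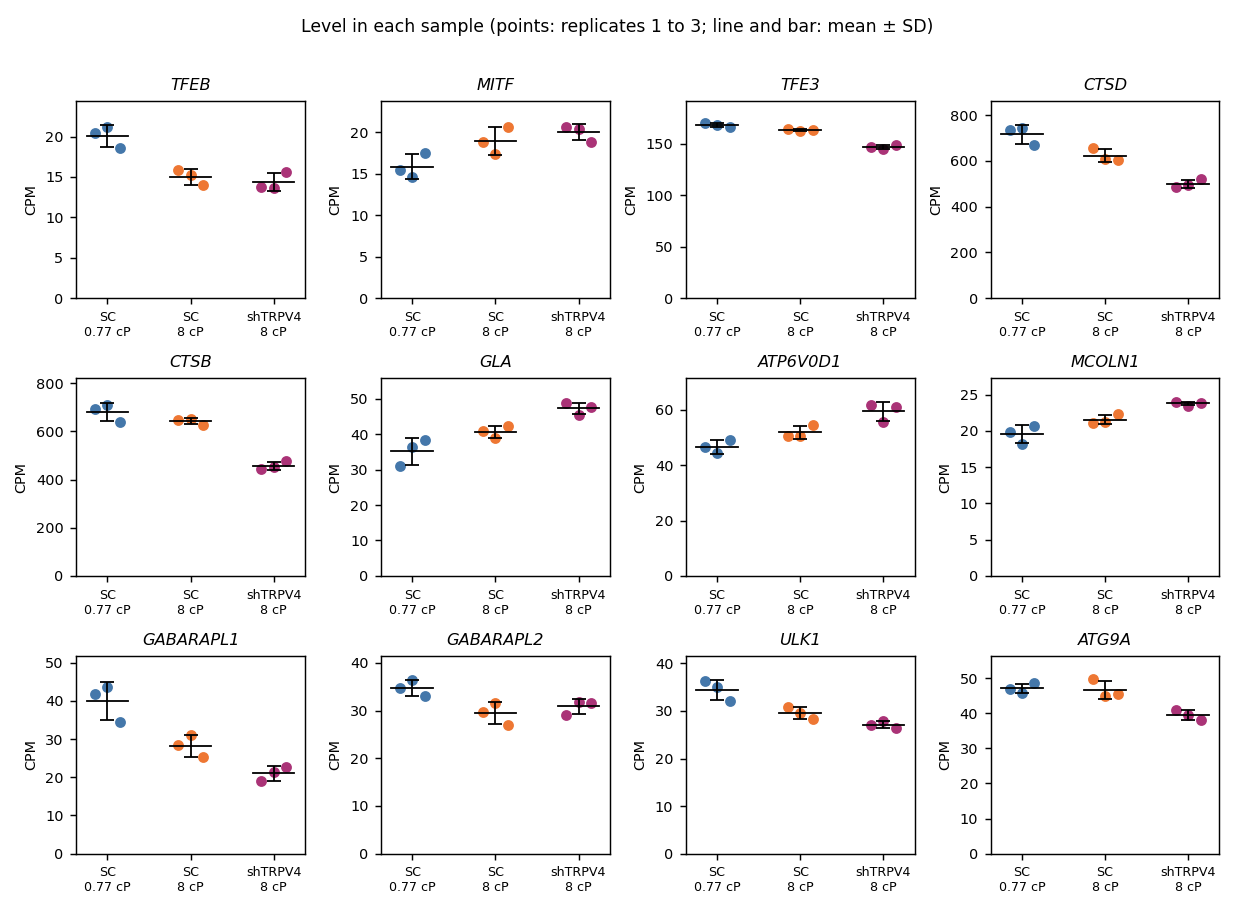
Level of 12 of the 35 genes in each of the 9 samples, in CPM on axes that start at 0, with the mean and SD of each group (n = 3). GABARAPL1 and CTSD step down and GLA, ATP6V0D1 and MCOLN1 step up from group to group without overlap, TFEB is low in both groups at 8 cP, and CTSB, TFE3 and ATG9A are low in shTRPV4 cells.

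Of the 11 autophagy genes, GABARAPL1 changed the most in each comparison, and its change was the largest of all 35 genes in the viscosity comparison and between the outermost groups. GABARAPL1 (chr12:10212458-10223128), one of the ubiquitin-like proteins that are joined to the autophagosome membrane, was at 41.9, 43.7 and 34.4 CPM in SC at 0.77 cP, 28.5, 31.0 and 25.3 CPM in SC at 8 cP and 19.0, 21.5 and 22.8 CPM in shTRPV4 at 8 cP. No groups overlapped. It fell by 29.2% in the viscosity comparison, at a log2 fold change of -0.50 ± 0.091 (SE, adjusted p = 0.0023), and by 25.5% in the knockdown comparison, at -0.43 ± 0.092 (SE, adjusted p = 0.0044). Between the outermost groups it fell by 47.3%, at -0.92 ± 0.092 (SE, adjusted p = 1.8e-06). All 3 calls held in all 16 alternative fits. An antisense gene, GABARAPL1-AS1, overlaps 329 bases of its exons, and since the strand setting of the counting is not given in the sources used here, reads of the 2 genes may not be separated there.

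Its relatives among the 35 genes moved less. GABARAPL2 was at 34.7, 36.5 and 33.1 CPM in SC at 0.77 cP, 29.7, 31.6 and 27.0 CPM in SC at 8 cP and 29.1, 31.9 and 31.6 CPM in shTRPV4 at 8 cP. It was lower at 8 cP than at 0.77 cP in SC cells, at -0.24 ± 0.063 (SE, adjusted p = 0.016), and the knockdown comparison gave 0.069 ± 0.064 (SE, adjusted p = 0.50). The viscosity call was lost without SC 0.77 cP replicate 1 (-0.23), SC 0.77 cP replicate 2 (-0.20) or SC 8 cP replicate 3 (-0.17). MAP1LC3B, the LC3 protein used as the common marker of autophagosomes, had means of 77.5 ± 4.74, 74.3 ± 1.98 and 72.3 ± 0.620 CPM (SD, n = 3 each) and was not called in any comparison, though without SC 0.77 cP replicate 1 it was called lower between the outermost groups (-0.14). Of the stretches of its canonical transcript 13.5% are shared with MAP1LC3B2, listed at 220 to 363 counts. Reads from these stretches match both genes and may not have been counted for either. The cargo receptor SQSTM1 was not called either, at 260.2 ± 9.40, 248 ± 1.69 and 245 ± 7.43 CPM.

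ULK1, the kinase that starts autophagy, was at 36.2, 35.03 and 32.2 CPM in SC at 0.77 cP, 30.9, 29.6 and 28.4 CPM in SC at 8 cP and 27.0, 27.9 and 26.5 CPM in shTRPV4 at 8 cP, with no overlap between groups. It was called lower in the viscosity comparison at -0.22 ± 0.056 (SE, adjusted p = 0.015), a call lost without SC 0.77 cP replicate 1 (-0.17), SC 0.77 cP replicate 2 (-0.20), SC 8 cP replicate 2 (-0.21) or SC 8 cP replicate 3 (-0.18). Between the outermost groups ULK1 fell by 21.3%, at -0.34 ± 0.057 (SE, adjusted p = 1.7e-04), called in all 16 alternative fits.

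ATG9A (chr2:219219380-219229717), the lipid scramblase carried by vesicles that seed the autophagosome, was at 46.8, 45.8 and 48.6 CPM in SC at 0.77 cP, 49.7, 44.8 and 45.4 CPM in SC at 8 cP and 40.9, 39.6 and 38.2 CPM in shTRPV4 at 8 cP. The SC groups overlapped and the shTRPV4 samples were below all of them, at a log2 fold change of -0.24 ± 0.052 (SE, adjusted p = 0.0046) in the knockdown comparison against -0.015 ± 0.052 (SE, adjusted p = 0.87) in the viscosity comparison. The knockdown call held in all 16 alternative fits. ATG9A was also called lower between the outermost groups, at -0.25 ± 0.052 (SE, adjusted p = 0.0011). Of the stretches of its canonical transcript 47.2% also lie in a read-through gene, ENSG00000284820, listed at 1 to 10 counts.

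BECN1, of the lipid kinase complex, rose in 1 comparison only, between the outermost groups, with means of 49.0 ± 1.68 CPM in SC at 0.77 cP and 53.6 ± 0.534 CPM in shTRPV4 at 8 cP (SD, n = 3 each) and a log2 fold change of 0.13 ± 0.047 (SE, adjusted p = 0.040). That call was lost with upper quartile scaling (0.11), with no filter (0.13) and without SC 0.77 cP replicate 1 (0.11), SC 0.77 cP replicate 2 (0.13) or any 1 of the shTRPV4 samples (0.12, 0.13 and 0.14). GABARAPL2 was lower in the same pair at -0.17 ± 0.063 (SE, adjusted p = 0.040), lost with total counts alone (-0.14) and without SC 0.77 cP replicate 1 (-0.17), SC 0.77 cP replicate 2 (-0.13), SC 8 cP replicate 1 (-0.16), or shTRPV4 replicates 1 (-0.13), 2 (-0.19) or 3 (-0.19). ATG5 and ATG7, of the conjugation machinery, UVRAG, a partner of BECN1, and WIPI1, which binds the lipid made by that complex, were not called in any comparison. WIPI1 was above both SC groups in all shTRPV4 samples, at 15.8, 15.5 and 15.1 CPM against 12.3, 14.8 and 14.5 and 13.7, 12.5 and 14.5 CPM. Its knockdown comparison gave 0.19 ± 0.078 (SE, adjusted p = 0.11), and 36.3% of all genes tested had no overlap there. In all, 22 of the 35 genes (62.9%) were called in at least 1 comparison, beside 47.7% of all genes tested, and 13 in none. Exons of 10 of the 22, BECN1, GABARAPL1, CTSD, CTSZ, GLA, HEXA, NPC1, NPC2, TFEB and ATP6V1A, overlap genes on the other strand by 103 to 6136 bases, where the same limit on strand holds as for GABARAPL1.

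Added up over the genes of each role, the levels show how the abundant genes weigh. The summed level of the 12 lumenal genes was 3663 ± 161 CPM in SC at 0.77 cP, 3408 ± 72.4 CPM in SC at 8 cP and 3029 ± 116 CPM in shTRPV4 at 8 cP (SD, n = 3 each), most of it from PSAP, CTSD, CTSB and CTSZ. The 11 autophagy genes summed to 670 ± 13.1, 636 ± 7.04 and 618 ± 3.49 CPM, and the 3 transcription factors, most of which is TFE3, to 204 ± 2.02, 198 ± 2.34 and 181 ± 2.11 CPM. The 5 vacuolar ATPase genes went the other way, at 323 ± 7.28, 339 ± 6.78 and 359 ± 5.64 CPM. The 4 membrane proteins, at 650 ± 18.6, 670 ± 8.15 and 659 ± 7.13 CPM, had overlapping groups. The sums over the wider list described below differed from these in several roles. Its 40 lumenal genes were at 1845 ± 54.5, 1875 ± 19.0 and 1806 ± 7.43 CPM. Its 12 vacuolar ATPase genes were at 1177 ± 32.5, 1146 ± 19.1 and 1137 ± 47.3 CPM, with overlapping groups. Its 40 autophagy genes were at 2804 ± 38.4, 2737 ± 14.9 and 2741 ± 23.2 CPM. Its 17 membrane proteins were at 1689 ± 55.0, 1612 ± 19.9 and 1467 ± 46.0 CPM, lowest in shTRPV4 at 8 cP. In these bulk samples less RNA per cell and fewer cells with a transcript cannot be told apart.

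**Figure D4:**
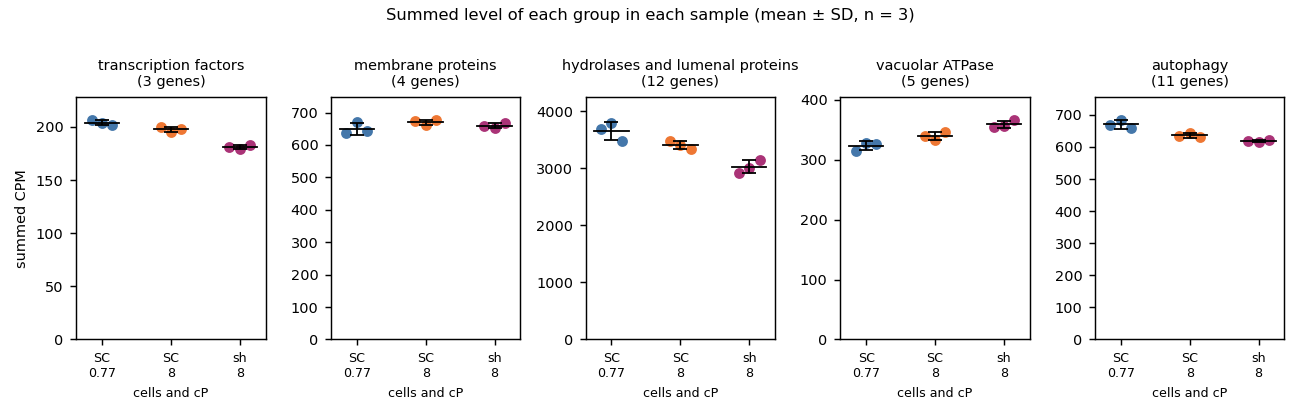
Summed CPM of the genes of each role in each of the 9 samples, with the mean and SD of each group (n = 3), on axes that start at 0. The lumenal, autophagy and transcription factor sums are lowest in shTRPV4 cells at 8 cP (3029, 618 and 181 CPM) and the vacuolar ATPase sum is highest there (359 CPM).

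A wider list of 128 further genes of the lysosome and of autophagy, 127 of which passed the filter on low counts (ACP5 did not), gives the surroundings of the 35. In the viscosity comparison 28 of the 127 were called (22.0% against 19.3% of all genes), 15 higher and 13 lower. The knockdown comparison called 24 (18.9% against 20.0%), 11 higher and 13 lower, and the outermost pair 58 (45.7% against 42.4%), 23 higher and 35 lower. These shares were near those of all genes. The median log2 fold changes were -0.015, -0.023 and 0.0085. By role, the 12 further vacuolar ATPase genes did not share the direction of the 5 above: in the viscosity comparison only TCIRG1, a subunit of the membrane sector, was called, and it was lower at -0.24 ± 0.078 (SE, adjusted p = 0.044). In the outermost pair ATP6V0A2 was called higher at 0.34 ± 0.069 (SE, adjusted p = 9.3e-04), and ATP6V1G1 and TCIRG1 lower at -0.28 ± 0.066 (SE, adjusted p = 0.0027) and -0.27 ± 0.078 (SE, adjusted p = 0.011). Without SC 0.77 cP replicate 1, SC 0.77 cP replicate 2 or SC 8 cP replicate 3 the calls of the viscosity comparison went from 28 to 10, 12 and 8, alongside the falls over all genes given above.

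The 4 smallest adjusted p-values of each comparison in the wider list belonged to 8 genes, 6 of them autophagy genes. Of the 127 tested genes 40 were autophagy genes, and the 3 comparisons share samples. The shares called among these 40 were 27.5%, 22.5% and 50%, beside 22.0%, 18.9% and 45.7% of the wider list. With 8 genes picked by their p-values, no share of autophagy genes is read from them. TMEM41B, a lipid scramblase of the endoplasmic reticulum needed for autophagosomes to form, was at 31.6, 31.7 and 27.8 CPM in SC at 0.77 cP, 25.3, 23.8 and 22.9 CPM in SC at 8 cP and 34.7, 34.2 and 33.3 CPM in shTRPV4 at 8 cP. It was thus lowest in SC at 8 cP, with -0.34 ± 0.060 (SE, adjusted p = 0.0020) in the viscosity comparison and 0.51 ± 0.060 (SE, adjusted p = 3.3e-05) in the knockdown comparison. VMP1, which works with TMEM41B, was lower at 8 cP in SC cells at -0.29 ± 0.057 (SE, adjusted p = 0.0038) and gave -0.066 ± 0.057 (SE, adjusted p = 0.46) in the knockdown comparison. ATG101, a part of the ULK1 complex, fell by 16.7% in the viscosity comparison, at -0.26 ± 0.047 (SE, adjusted p = 0.0020). EPG5, a tether for the fusion of autophagosomes with lysosomes, rose at each step, at 0.28 ± 0.053 (SE, adjusted p = 0.0028) and 0.28 ± 0.053 (SE, adjusted p = 0.0018).

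WIPI2, which recruits the conjugation machinery to the forming membrane, was at 70.7, 74.7 and 74.4 CPM in SC at 0.77 cP, 75.6, 72.9 and 70.9 CPM in SC at 8 cP and 106, 106 and 112 CPM in shTRPV4 at 8 cP. The SC groups overlapped and the shTRPV4 samples stood far above them, at 0.56 ± 0.045 (SE, adjusted p = 8.1e-07) in the knockdown comparison. ATG12, the ubiquitin-like protein joined to ATG5, was lower in shTRPV4 cells at -0.30 ± 0.046 (SE, adjusted p = 3.4e-04), with all 3 shTRPV4 samples between 38.5 and 39.0 CPM and the SC samples between 46.9 and 52.7 CPM. The galactosylceramidase gene GALC was higher in them at 0.33 ± 0.054 (SE, adjusted p = 5.2e-04). TPCN1, an ion channel of endosomes and lysosomes, was lower at each step, with -0.29 ± 0.064 (SE, adjusted p = 0.0066) and -0.29 ± 0.065 (SE, adjusted p = 0.0052), and had -0.58 ± 0.065 (SE, adjusted p = 5.0e-06) between the outermost groups.

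**Figure D5:**
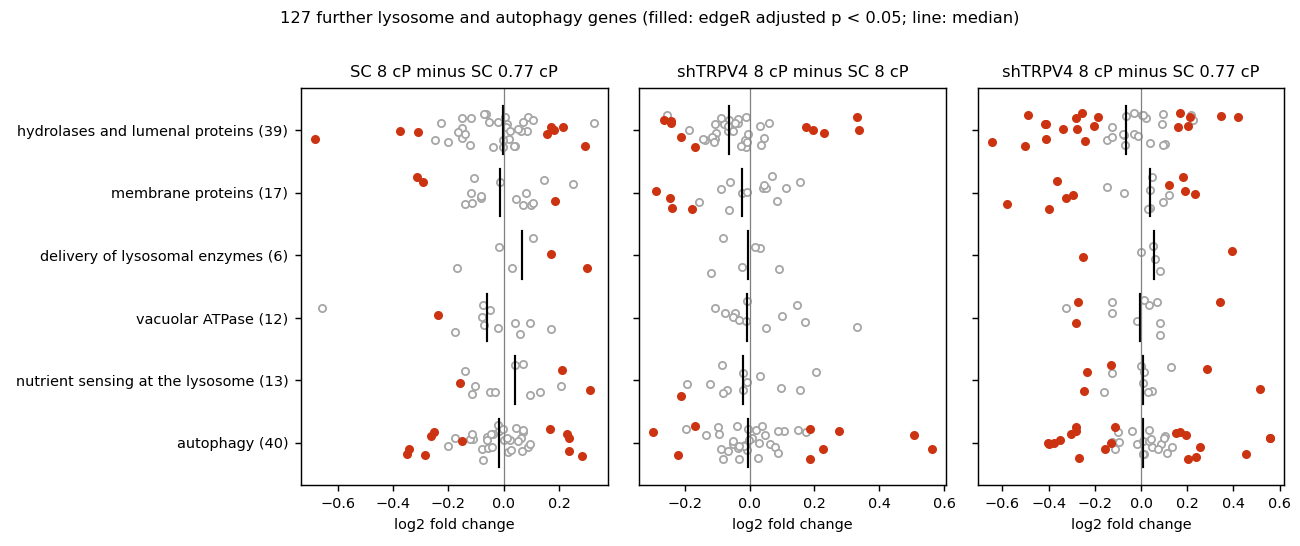
Log2 fold change of each of the 127 tested genes of the wider list in the 3 comparisons, by role (number of genes in brackets), with filled circles where edgeR's adjusted p was below 0.05 and a line at the median of each role. Called genes lie on both sides of 0 in most rows, and the overall medians were -0.015, -0.023 and 0.0085.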

How the data were processed

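RNA of 9 samples of MDA-MB-231 cells was sequenced from stranded poly(A) libraries. The authors aligned reads with HISAT2 2.2.1 to GRCh38.p13 and counted exon reads per Ensembl gene with HTSeq 0.13.5, and the deposited values are raw counts, 1 file per sample. The strand setting of the counting is not given in the sources used here. Overlapping exons and shared transcript stretches were taken from GENCODE release 44.

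Here all 9 samples entered 1 edgeR 4.0.16 model (R 4.3.3) with a coefficient per group, TMM scaling and the filterByExpr filter, leaving 18264 genes. The quasi-likelihood test was adjusted by Benjamini-Hochberg over all of them, at a threshold of 0.05. Each SE was derived from that test, as the absolute log2 fold change divided by the square root of its F statistic. CPM divides a count by the scaled library total, and 1 CPM equals 64.1 to 102.9 counts in these libraries. The steps were tested on simulated data. DESeq2 1.42.0, other scalings and filters, the 6 samples of a comparison alone, a replicate block and leaving out each sample were alternatives.

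The 35 genes, the wider list and the tests were chosen with earlier results of these data known. Every called gene of the 35 is named with its values, and of the wider list the 4 with the smallest adjusted p in each comparison, the called genes of the vacuolar ATPase, and TRPV4 as the target of the hairpin. With 3 samples a group, an exact permutation test of 1 gene could not go below p = 0.1, so none was used.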

Additional observations from a re-analysis of the deposited data

How the results depend on the processing

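No call of the 35 genes changed direction in any of the 16 alternative fits. The number called higher in the viscosity comparison, 2 by edgeR, was 4 with DESeq2, which added ATP6V1A and ATP6V1B2, and 4 with a replicate block, which added ATP6V0D1 and ATP6V1B2. The block gave 11 calls in place of 9 in that comparison and the same genes in the other comparisons. Deviations of same-numbered samples from their group means correlated at -0.055 to 0.090 over 9 pairs, and those of other pairs at -0.11 to 0.11. Between the 2 SC groups the same-numbered pairs were at 0.045, 0.032 and 0.090, and the other pairs at -0.059 to 0.017. Whether the replicate numbers pair the SC samples was not tested. With total counts alone the median log2 fold change of the 35 genes was 0.013 in the knockdown comparison and -0.014 between the outermost groups, in place of -0.014 and -0.042. That scaling moved all genes alike, since the medians over all genes were 0.028 and 0.017 in place of 0.00064 and -0.011.

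Leaving out 1 sample at a time changed most in the viscosity comparison, where the 35 genes had 2 to 13 calls, 0 to 6 of them higher and 2 to 8 lower, and the wider list 8 to 35 calls, 3 to 17 higher and 5 to 18 lower. The 13 calls came without SC 0.77 cP replicate 3 and also without shTRPV4 8 cP replicate 1. In the knockdown comparison the 35 genes had 5 to 8 calls, 0 to 2 higher, with a median of -0.032 to -0.015, and the wider list 6 to 12 higher calls, 6 without SC 8 cP replicate 2. Between the outermost groups 9 to 14 were called lower, with a median of -0.073 to -0.021. Over all genes the share called was 11.7 to 20.5% in the knockdown comparison and 34.0 to 41.3% between the outermost groups. Such fits have fewer samples, and over all genes the viscosity comparison then called between 1409 and 4349 (7.56 to 23.3% of those tested), with 4344 and 4349 in the fits where the list had 13.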
